A study of Rattus norvegicus with 12 samples.

Results

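Kidney nuclei whose high-level type in the deposited annotation was Immune were examined in ZSF1 rats. They numbered 3374 of 217132 nuclei (1.55%) and came from each of 12 rats, with between 118 nuclei in the lean rat RK3_4 and 533 in the sGCstim-treated rat RK61_4. The intermediate annotation gave all 3374 nuclei the name Immune. In the finest annotation, 3370 of them (99.9%) carried the name Immune and 4 (0.119%) the name PST, a cluster of the proximal straight tubule. None of the 3 annotations parted the immune nuclei into lymphoid and myeloid names.

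All rats were male and carried the ZSF1-LeprfaLeprcp/Crl background, in which mutations of the leptin receptor give an obese, diabetic form with kidney disease and a lean form that serves as control. The 3 lean rats were left undosed. The 9 obese rats were dosed for 12 weeks from the age of 13 to 14 weeks, 3 with vehicle (here untreated obese), 3 with the soluble guanylate cyclase (sGC) activator BAY 1101042, also called Runcaciguat, at 3 mg/kg 2 times a day (sGCact), and 3 with the sGC stimulator BAY 1165747 at 3 mg/kg 1 time a day (sGCstim). Lean and untreated obese rats therefore differed in vehicle as well as in genotype, and the drugs differed in doses per day. The sequenced rats were 3 of 6 lean rats and 3 of 10 rats in each obese group, and they are named here by their animal identifiers.

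Immune cells of the kidney lie mainly in the interstitium between tubules and vessels and comprise resident macrophages and dendritic cells together with T cells, B cells and other leukocytes that enter from the blood. Leukocytes as a class are recognised by Ptprc, which encodes the surface phosphatase CD45. In diabetic kidney disease, macrophages and lymphocytes accumulate around injured tubules and glomeruli, where they exchange signals with tubular cells, endothelium and fibroblasts. Soluble guanylate cyclase makes cGMP in response to nitric oxide and is best known from smooth muscle, stroma and platelets. Values of single genes were not analysed here, so the name Immune was not checked against Ptprc, and no change of gene expression within immune nuclei is given.

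Immune nuclei were shallow. They held between 428 and 4798 unique molecular identifiers (UMIs, each counting 1 captured transcript molecule) with a median of 1111, against a median of 1277 over all nuclei. All immune nuclei together held 1.21% of the UMIs in the table. The rats gave between 10488 and 43484 nuclei each, the most in RK9_4. The study's methods state 10000 loaded nuclei, so every rat gave more nuclei than that number. The reason was not tested. The shallowest immune nucleus had 428 UMIs in RK57_4 but 1012 UMIs in RK1_4. A single cell barcode was shared by 2 immune nuclei, of RK16_4 and RK57_4, which leaves 3373 distinct barcodes.

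The share of immune nuclei among all nuclei of a rat was lowest in lean rats, but the spread within the untreated obese group was wider than the distance between the groups. In lean rats it was 0.779% in RK3_4, 0.988% in RK5_4 and 1.25% in RK1_4. In untreated obese rats it was 0.952% in RK9_4, 1.90% in RK16_4 and 4.16% in RK7_4. RK9_4 thus lay inside the lean range while RK7_4 had the largest share of the 12 rats. Under sGCact the shares were 1.20% in RK46_4, 1.35% in RK43_4 and 1.85% in RK45_4, and under sGCstim they were 1.45% in RK57_4, 2.08% in RK58_4 and 2.29% in RK61_4. Every sGCstim-treated rat and 2 of the 3 sGCact-treated rats stood above the highest lean rat, an order that was not counted in the other types. The mean was 1.01% ± 0.238 over lean and 2.34% ± 1.65 over untreated obese rats, and it was 1.47% ± 0.339 with sGCact and 1.94% ± 0.438 with sGCstim (SD, n = 3 each). Counting error was much smaller than these differences between rats, with a 95% Wilson interval of 3.79% to 4.56% for RK7_4 and of 0.865% to 1.05% for RK9_4, and such intervals cover counting error only.

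**Figure D1:**
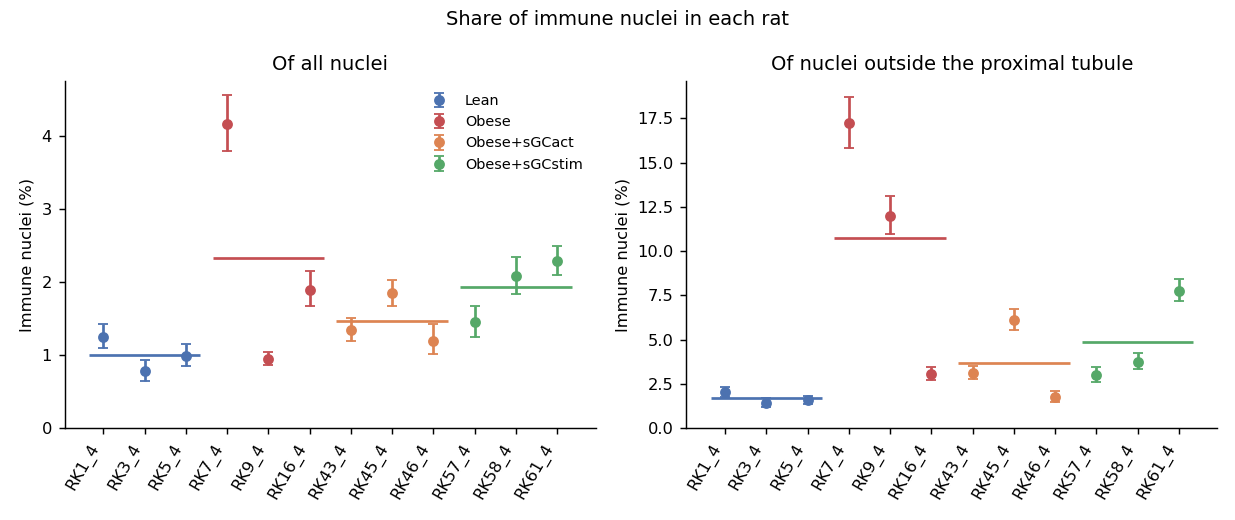
Share of immune nuclei in each rat, in percent of all nuclei (left) and of the nuclei outside the proximal tubule (right). Points are rats with 95% Wilson intervals and horizontal lines are group means. On the left the untreated obese rats run from 0.952% to 4.16% and overlap the lean rats, on the right their lowest value is 3.05% and the highest lean value is 2.04%.

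No contrast of the immune share of all nuclei passed the threshold in log odds. The log odds of the share were compared by limma over the 12 rats and 8 high-level types, with p values adjusted by the Benjamini-Hochberg method over the types of a contrast and a threshold of 0.05. Untreated obese rats stood 0.70 above lean rats in log odds (natural log, SE 0.45, 95% interval -0.26 to 1.65, limma adjusted p = 0.264), with the obese rat higher in 7 of the 9 obese-lean pairs (two-sided exact permutation, p = 0.3). Of the 8 types, 12.5% were called in this contrast. Over the same 8 types, proximal tubule included, the difference passed with the centred log-ratio as scale (1.20, limma adjusted p = 0.0160, 37.5% of types called) and with edgeR's quasi-likelihood test and TMM scaling (1.97 on the log2 scale, adjusted p = 0.0103, 37.5% of types called). It did not pass with edgeR on total nuclei (1.21 on the log2 scale, adjusted p = 0.175) or on the arcsine square root scale (limma adjusted p = 0.215). The differences from untreated obese rats were -0.32 (SE 0.45, limma adjusted p = 0.624) under sGCact and -0.032 (SE 0.45, limma adjusted p = 0.946) under sGCstim, where 0.0% of types were called. Between sGCact and sGCstim the difference was -0.28 (95% interval -1.24 to 0.67, limma adjusted p = 0.976). With 3 rats against 3, no exact permutation test can go below p = 0.1.

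Proximal tubule nuclei made up between 32.6% and 92.1% of the nuclei of a rat and so moved the share of every other type. Among the nuclei outside the proximal tubule, immune nuclei were more frequent in untreated obese than in lean rats. In lean rats they were 1.43% of these nuclei in RK3_4, 1.59% in RK5_4 and 2.04% in RK1_4. In untreated obese rats they were 3.05% in RK16_4, 12.0% in RK9_4 and 17.2% in RK7_4. No untreated obese rat overlapped the lean rats, and RK7_4 and RK9_4 stood far above RK16_4. Of the 7 types outside the proximal tubule, 28.6% were without overlap in this contrast. Under sGCact the share was 1.78% in RK46_4, 3.12% in RK43_4 and 6.13% in RK45_4, and under sGCstim it was 3.02% in RK57_4, 3.77% in RK58_4 and 7.77% in RK61_4. Only RK46_4 among the 9 obese rats lay within the lean range, which was not counted in the other types.

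In this denominator the difference between untreated obese and lean rats was 1.73 in log odds (SE 0.46, 95% interval 0.74 to 2.72, limma adjusted p = 0.0163), the single call among 7 types (14.3%), with the obese rat higher in 9 of the 9 pairs (two-sided exact permutation, p = 0.1, which is the lower limit). It no longer passed among nuclei with at least 1000 UMIs (1.56, limma adjusted p = 0.193) or with at most 1% mitochondrial UMIs (2.24, limma adjusted p = 0.139), and it rested on few rats. Leaving out RK3_4, RK5_4, RK7_4 or RK9_4, each in turn, brought the limma adjusted p to between 0.0552 and 0.0766, and without both RK7_4 and RK9_4 the difference was 0.62 (limma adjusted p = 0.349), with RK16_4 as the only untreated obese rat.

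The treated groups lay between lean and untreated obese rats in this denominator. The mean was 1.69% ± 0.315 over lean and 10.7% ± 7.16 over untreated obese rats, and it was 3.68% ± 2.23 with sGCact and 4.85% ± 2.56 with sGCstim (SD, n = 3 each). The difference from untreated obese rats was -1.05 in log odds under sGCact (95% interval -2.04 to -0.057, limma adjusted p = 0.279) and -0.72 under sGCstim (95% interval -1.71 to 0.27, limma adjusted p = 0.421), and neither passed, with 0.0% of types called in both contrasts. Leaving out RK16_4 brought the sGCact difference to -1.61 (limma adjusted p = 0.0122), and without RK7_4 and RK9_4 both differences changed sign, to 0.068 and 0.40. Between sGCact and sGCstim, given at different doses per day, the difference was -0.33 (95% interval -1.32 to 0.66, limma adjusted p = 0.830).

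Set against the endothelium and the stroma, the types most like them in kind, immune nuclei were least frequent in lean rats. For 100 endothelial nuclei there were 6.22 immune nuclei in RK3_4, 9.65 in RK5_4 and 9.98 in RK1_4 of the lean group. The untreated obese group had 16.8 in RK16_4, 88.7 in RK9_4 and 138 in RK7_4. The lowest untreated obese rat was thus above the highest lean rat. The sGCact group had 13.7 in RK46_4, 21.5 in RK43_4 and 44.8 in RK45_4, and the sGCstim group had 20.7 in RK57_4, 26.7 in RK58_4 and 56.0 in RK61_4. All 9 obese rats stood above all 3 lean rats in this ratio. Whether other types showed the same order over all 9 obese rats was not counted. RK7_4 and RK9_4 held only 319 and 467 endothelial nuclei, against 1731 to 2094 in lean rats. The mean log2 ratio was 2.80 higher in untreated obese than in lean rats, 6.99-fold (two-sided exact permutation, p = 0.1), in a contrast where 57.1% of the 7 types set against the endothelium were without overlap.

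Against the stroma the distance was smaller. For 100 stromal nuclei, lean rats had 21.0, 28.5 and 29.8 immune nuclei in RK3_4, RK5_4 and RK1_4. Untreated obese rats had 46.8 in RK16_4, 73.1 in RK9_4 and 251 in RK7_4, which held 175 stromal nuclei. sGCact-treated rats had 43.0, 45.0 and 80.8 and sGCstim-treated rats 70.2, 73.2 and 90.4. The obese rats again all lay above the lean rats, an order that was not counted in the other types. The high mean of untreated obese rats rested on RK7_4, since RK16_4 lay below and RK9_4 within the range of sGCstim-treated rats, and without RK7_4 the sGCstim minus untreated obese difference turned from -0.30 to 0.40 in log2. The untreated obese minus lean difference was 1.86 in log2, 3.64-fold (two-sided exact permutation, p = 0.1), with 42.9% of the 7 types without overlap. Neither treated group was parted from untreated obese rats in either ratio (two-sided exact permutation, p = 0.3 for sGCact and p = 0.5 for sGCstim against the endothelium, p = 0.5 and p = 0.9 against the stroma), and sGCact and sGCstim overlapped as well (two-sided exact permutation, p = 0.6 and p = 0.3).

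**Figure D2:**
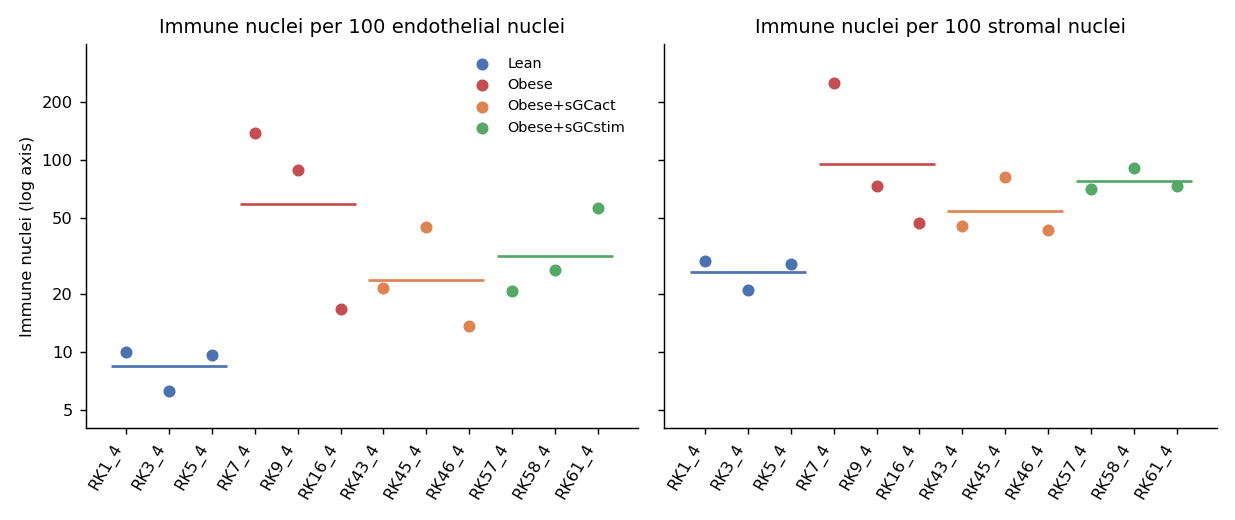
Immune nuclei per 100 endothelial (left) and per 100 stromal nuclei (right) in each rat, on a log axis. Points are rats and lines are geometric means of the groups. The 3 lean rats lie between 6.22 and 9.98 on the left and between 21.0 and 29.8 on the right, below all 9 obese rats. This order was not counted in the other types.

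The immune share of the nuclei outside the proximal tubule moved with the make-up of a rat's library and with the median UMIs of its nuclei. Over the 12 rats it rose with the proximal tubule share of all nuclei (Pearson r = 0.833, permutation p = 0.00099, adjusted over 3 relations p = 0.00297, Spearman rho = 0.783, permutation p = 0.00343). Both quantities are computed from the number of nuclei outside the proximal tubule. Part of this relation can therefore be built in, which the permutation p does not take into account. Without RK9_4 and RK7_4, the rats farthest from the median proximal tubule share, r was 0.867 over 10 rats, and with values centred on the group it was 0.780. The share fell with the median UMIs of all nuclei of the rat (r = -0.684, permutation p = 0.0199, adjusted p = 0.0299, rho = -0.923, permutation p = 7e-05). This relation was steeper without RK1_4 and RK7_4 (r = -0.809 over 10 rats) and no longer passed with values centred on the group (r = -0.543, permutation p = 0.0645). With the number of nuclei no relation was found (r = 0.346, permutation p = 0.217). The median UMIs were taken over all nuclei, proximal tubule included. Their relation to the immune share is therefore not independent of the proximal tubule relation. In RK9_4 the median was 901 over all nuclei, 892 in proximal tubule and 1508 in immune nuclei. The part of proximal tubule share and median UMIs in the difference between obese and lean rats was not tested, since they moved with the groups.

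**Figure D3:**
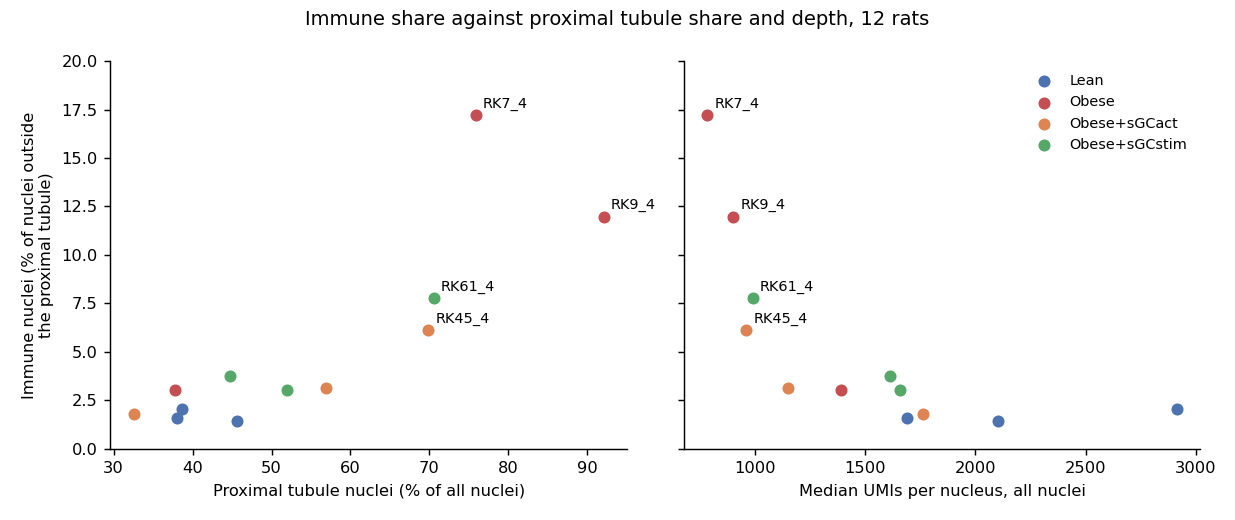
Immune share of the nuclei outside the proximal tubule against the proximal tubule share (left, percent of all nuclei) and the median UMIs of all nuclei (right), 1 point for each of the 12 rats. The 4 rats above 5% immune nuclei, RK7_4, RK9_4, RK61_4 and RK45_4, have the 4 highest proximal tubule shares and the 4 lowest median UMIs.

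When UMIs and not nuclei were counted, untreated obese and lean rats did not overlap in the immune share. Immune nuclei held 0.465%, 0.783% and 0.741% of the UMIs of the lean rats RK3_4, RK5_4 and RK1_4. They held 1.34%, 1.37% and 3.51% in the untreated obese rats RK16_4, RK9_4 and RK7_4 (two-sided exact permutation, p = 0.1). Of the 8 types, 25.0% were without overlap in this share. Treated rats lay from 0.768% to 2.36%, overlapping untreated obese rats.

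The filter on nuclei changed some of these values. Among nuclei with at least 1000 UMIs, 3.31% of the nuclei of RK9_4 were immune, as against 0.952% of all its nuclei. In this rat 94.7% of its immune nuclei but 27.3% of all its nuclei reached 1000 UMIs. In RK16_4 the reverse held, with 39.4% of immune and 75.8% of all nuclei at that depth, and the immune share was 0.986%. At this depth the untreated obese rats had 0.986%, 3.31% and 3.71% immune nuclei and the lean rats 0.650%, 0.662% and 1.26%, so that the groups overlapped in 1 of 9 comparisons (two-sided exact permutation, p = 0.2).

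UMIs per immune nucleus did not differ between groups beyond the spread between rats. The median over the immune nuclei of a rat was 1114, 1267 and 1616 in the lean rats RK5_4, RK3_4 and RK1_4. It was 900.0, 905.0 and 1508 in the untreated obese rats RK16_4, RK7_4 and RK9_4, so that RK9_4 stood among the lean rats. Under sGCact it was 826, 1019 and 1044 in RK43_4, RK46_4 and RK45_4, and under sGCstim 830.0 in RK57_4 and 1237 in both RK58_4 and RK61_4. The ranges of all groups overlapped. On the log2 scale the medians of untreated obese rats were -0.30 from those of lean rats (SE 0.28, limma adjusted p = 0.345), while 37.5% of the 8 types were called in this contrast. The median UMIs of immune nuclei varied 1.96-fold over the 12 rats, the smallest range of the 8 types, beside 4.95-fold for proximal tubule nuclei.

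Expressed genes per immune nucleus followed the UMIs. The rats' medians ran from 656 in RK43_4 to 1192 in RK1_4, with means of 999.7 ± 168 over lean and 836 ± 214 over untreated obese rats, 766 ± 95.3 with sGCact and 867 ± 155 with sGCstim (SD, n = 3 each). The untreated obese minus lean difference was -0.27 in log2 (SE 0.24, limma adjusted p = 0.299, 37.5% of types called), and no other contrast of immune nuclei passed (limma adjusted p from 0.640 to 0.968). Among immune nuclei of 1000 to 1500 UMIs, 28 to 246 of them in a rat, sGCstim-treated rats had medians of 942, 948 and 950 genes and sGCact-treated rats 857, 890 and 919. These groups did not overlap (two-sided exact permutation, p = 0.1, which is the lower limit), but neither did 57.1% of the 7 types with enough nuclei in the window, immune nuclei among them. The median UMIs of immune nuclei in the window were also lower under sGCact, at 1138 to 1195 against 1208 to 1238, without overlap in 28.6% of these types.

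The mitochondrial percentage of immune nuclei differed more between rats of a group than between groups. The median over immune nuclei was 0.114% in RK5_4, 1.77% in RK1_4 and 3.71% in RK3_4 of the lean group. In untreated obese rats it was 0.495% in RK9_4, 0.508% in RK7_4 and 2.52% in RK16_4. Both groups thus held a rat well below 1% and a rat above it. Under sGCact the medians were 0.163% in RK46_4, 0.357% in RK45_4 and 3.59% in RK43_4, and under sGCstim 0.0655% in RK57_4, 0.0742% in RK58_4 and 1.70% in RK61_4. On the log2 scale of the percentage with 0.1 added, which understates changes of low values, the untreated obese minus lean difference was -0.23 (SE 1.39, limma adjusted p = 0.872), and the sGCstim minus untreated obese difference was -1.40 (SE 1.39, limma adjusted p = 0.532). At least 1 mitochondrial UMI was found in 88.8% to 96.4% of the immune nuclei of untreated obese rats and in 51.4% to 88.4% of those of sGCstim-treated rats, without overlap (two-sided exact permutation, p = 0.1), in a contrast where 12.5% of the 8 types were without overlap, immune nuclei being that 1 type.

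The cell-cycle scores of immune nuclei were computed by the authors from S and G2M phase genes. No contrast of their mean scores between groups passed the threshold. The mean G2M score of a rat lay between -0.0074 and 0.0076 and the mean S score between -0.0069 and 0.0056. Untreated obese rats were 0.0063 above lean rats in the G2M score (SE 0.0039, limma adjusted p = 0.213, 37.5% of types called) and 0.0016 below them in the S score, a difference of -0.0016 (SE 0.0028, limma adjusted p = 0.701, 12.5% of types called). The phase calls were spread evenly, with 33.4% of immune nuclei called G1, 33.3% S and 33.3% G2M, beside 34.0%, 33.8% and 32.2% of all nuclei.

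Pooled over the 12 rats, high scores were more frequent among immune nuclei than in any other type. Of the 3374 immune nuclei, 26 (0.771%, 95% Wilson interval 0.526% to 1.13%) lay past the 99.9th percentile of all nuclei in the S or the G2M score. This interval covers counting error only. The endothelium, next in order, had 40 of 13909 (0.288%), the proximal tubule 199 of 131704 (0.151%) and the stroma 5 of 5809 (0.0861%). Podocytes had 0 of 2533, which allows a share of up to 0.118%, taken as 3 counts of the total. The 26 immune nuclei came from 10 rats, at most 6 of them from RK7_4. In 10 of 12 rats the immune share was above that of all other nuclei. In RK1_4, RK5_4 and RK58_4 it rested on 1 such immune nucleus each. Within rats, immune nuclei ranked 2nd of the 8 types in RK16_4 and RK43_4, 4th in RK58_4 and 5th in RK3_4 and RK61_4. They ranked 1st in the remaining rats. Lean rats gave 2 of them among 494 immune nuclei and untreated obese rats 12 among 1102. Rats on sGCact gave 8 among 811 and rats on sGCstim 4 among 967. These counts were not tested between groups. This percentile was chosen after the scores were seen, and the values are a description, since the type was itself defined from the genes of these nuclei.

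Beside the other types of the same rat, immune nuclei were shallower than most types and were not parted from endothelium and stroma. Their median UMIs were below the median of the other 7 types in 12 of 12 rats, by 0.57 on the log2 scale on average (SD 0.32), which is 0.676-fold (exact two-sided sign-flip permutation test, p = 0.000488, the smallest possible here, adjusted over 15 comparisons p = 0.00183). From the endothelium they differed by -0.028 (SD 0.13, exact sign-flip permutation test, adjusted p = 0.755) and from the stroma by -0.0059 (SD 0.32, exact sign-flip permutation test, adjusted p = 0.980). The differences from the endothelium stayed between -0.18 and 0.18 in every rat, while those from the stroma ran from -0.39 to 0.56. In RK1_4, for example, the medians were 1616 in immune, 1835 in endothelial and 1900 in stromal nuclei and 2994 over the other types, and in RK7_4 they were 905.0, 1009, 696 and 1009.

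The mitochondrial percentage of immune nuclei was above the median of the other 7 types in 12 of 12 rats. Immune nuclei ranked 1st to 4th of the 8 types in every rat, and first in RK1_4, RK3_4 and RK43_4. The difference from the endothelium was positive in 7 of 12 rats and that from the stroma in 7 of 12. In RK3_4 the immune median of 3.71% stood beside 2.31% in endothelium, 0.684% in stroma and 0.0839% in proximal tubule. In RK9_4 the order was turned, with 0.495% in immune and 3.97% in proximal tubule nuclei. The proximal tubule had the higher median in the 4 rats with the highest proximal tubule share and in none of the other 8.

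**Figure D4:**
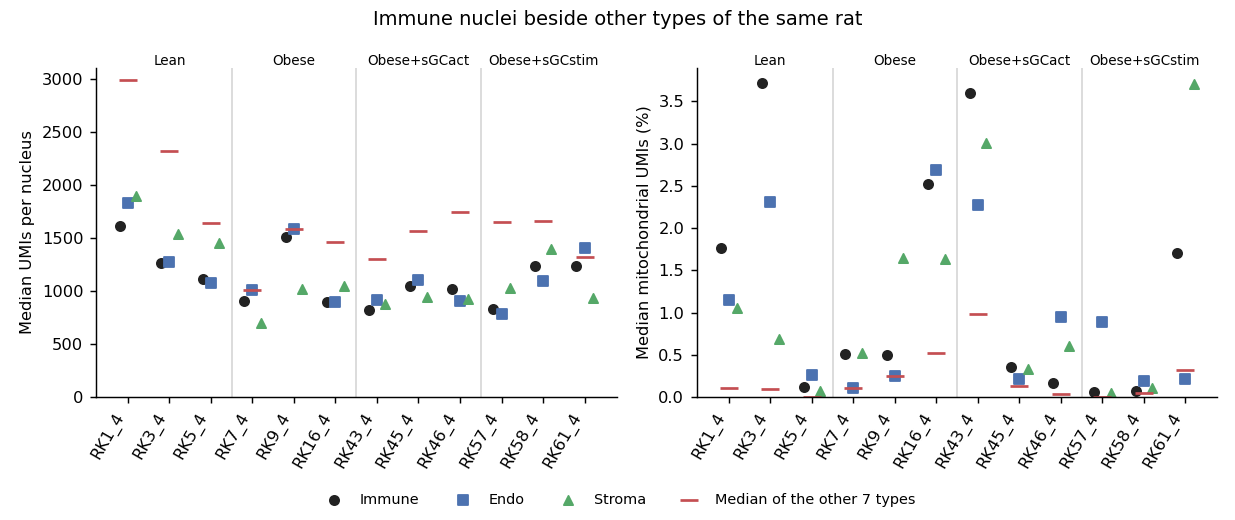
Median UMIs per nucleus (left) and median mitochondrial percentage (right) of immune, endothelial and stromal nuclei and the median over the 7 types other than immune, for each rat by group. Immune nuclei lie below the median of the other types in UMIs and above it in mitochondrial percentage in all 12 rats.

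Within a narrow window of depth immune nuclei had slightly more expressed genes than most types. Among nuclei of 1000 to 1500 UMIs their median number of genes was above the median of the other types in 11 of 12 rats (mean difference 0.064 in log2, SD 0.082), above the proximal tubule in 11 of 12 (0.12, SD 0.11) and above the endothelium in 9 of 12 (0.041, SD 0.048). Against the stroma it was higher in 8 and lower in 3 rats (0.037, SD 0.089). Depth was not equal inside the window, where the median UMIs of immune nuclei were 0.944 to 1.05 times those of the endothelium, 0.912 to 1.16 times those of the stroma and 0.915 to 1.19 times those of the proximal tubule of the same rat. In RK5_4 the medians were 940.0 genes in immune, 872 in endothelial, 894 in stromal and 839 in proximal tubule nuclei.

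On the authors' two-dimensional embedding most immune nuclei lay in 1 body. The type names come from clustering of the same nuclei, so that neighbours of the same type are given by the naming and are a description. Of the 30 nearest nuclei of an immune nucleus, 96.7% were immune on average, and for 2805 immune nuclei (83.1%) all 30 were. The other 7 types had between 93.3% (stroma) and 99.6% (podocytes) neighbours of their own type. Among the immune nuclei, 96 (2.85%) had fewer than 50% immune neighbours, and 80.7% of the neighbours of these nuclei were proximal tubule nuclei. Of these 96 nuclei 50 came from RK61_4, where they were 9.38% of the immune nuclei, as against 0.0% to 2.81% in the other 11 rats. Their depth differed between rats. In RK61_4 their median was 2630 UMIs against 1168 in its remaining immune nuclei. They had more UMIs and a lower mitochondrial percentage than the remaining immune nuclei in 8 of the 11 rats that held any, and fewer UMIs and a higher mitochondrial percentage in the other 3, with 1026 UMIs against 1515 in RK9_4 (11 nuclei), 771 against 1051 in RK45_4 (9 nuclei) and 838 against 905.0 in RK7_4 (2 nuclei). Over all rats the medians were 2283 against 1102 UMIs and 0.0257% against 0.832% mitochondrial UMIs, with 50 of these 96 nuclei from RK61_4. Without them, the immune share of the nuclei outside the proximal tubule in RK61_4 was 7.04% in place of 7.77%, and that of RK9_4 was 11.7% in place of 12.0%.

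Within the body 3 dense areas could be told apart. They were found by density clustering (HDBSCAN with at least 100 nuclei) of the coordinates of immune nuclei with at least 50% immune neighbours, after the map had been seen, and are named here by position alone. The right area held 1482 immune nuclei (43.9%), the left area 712 (21.1%), the lower area 574 (17.0%), and 510 (15.1%) lay between the areas. All 12 rats had nuclei in all 3 areas. The right area held 33.3% to 54.2% of the immune nuclei of a rat and was the largest area in 11 of 12 rats. The exception was RK3_4, with 42 nuclei on the left and 40 on the right.

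The shares of the areas among immune nuclei overlapped between most groups. The right area had a mean share of 38.4% ± 8.16 over lean and 41.1% ± 7.21 over untreated obese rats, 51.9% ± 2.18 with sGCact and 44.4% ± 7.59 with sGCstim (SD, n = 3 each). The lower area had 13.8% ± 5.26, 20.9% ± 4.54, 14.9% ± 5.52 and 13.1% ± 1.71 in the same order, and the left area 28.0% ± 9.58, 22.1% ± 7.75, 20.7% ± 5.78 and 19.5% ± 5.07. Ranges of lean and untreated obese rats overlapped in all 3 areas. The right area under sGCact (49.9% to 54.2%) lay above its range in untreated obese (33.3% to 47.6%) and in lean rats (33.5% to 47.8%). It overlapped the right area under sGCstim. In the left and lower areas sGCact-treated rats overlapped both untreated obese and lean rats. In the lower area all 3 sGCstim-treated rats were below 16.4%, the lowest untreated obese value. These separations were picked from several areas and contrasts after the map was seen, and were not counted in the other types. As a share of the nuclei outside the proximal tubule, each of the 3 areas was higher in all 3 untreated obese rats than in all 3 lean rats. The whole immune share did the same in this denominator, where 28.6% of the 7 types were without overlap. The right area ran from 0.486% to 0.977% in lean and from 1.02% to 7.29% in untreated obese rats, the left area from 0.352% to 0.510% and from 0.944% to 2.86%, and the lower area from 0.134% to 0.401% and from 0.637% to 4.39%. No area was tested, because the areas were chosen after the map was seen.

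The mitochondrial percentage was mostly lower in the right area than in the left and lower areas of the same rat. Its median was lower on the right than on the left in 12 of 12 rats and lower than in the lower area in 11 of 12. In RK61_4 it was 1.51% on the right, 2.93% on the left and 2.24% in the lower area. Some gaps were small, as in RK57_4 with 0.0773% on the right and 0.0847% on the left. The nuclei between the areas had a median of 0.433% over all rats, below the 0.541% of the right area. They were lower than the right area in RK61_4 (0.144%) but higher in RK7_4 (0.856% against 0.272%). Of the 26 nuclei with high cell-cycle scores, 17 lay in the right and 7 in the lower area. A further 1 lay on the left and 1 between the areas. These counts make up 1.15% of the right, 1.22% of the lower and 0.140% of the left area. They are pooled over rats and are a description, since map and scores come from the same transcripts. The median UMIs of the right, lower and left areas were 1155, 1037 and 989. The right area was deeper than the lower area in 10 of 12 rats and deeper than the left area in 9 of 12, and the part of depth in these shares was not tested.

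**Figure D5:**
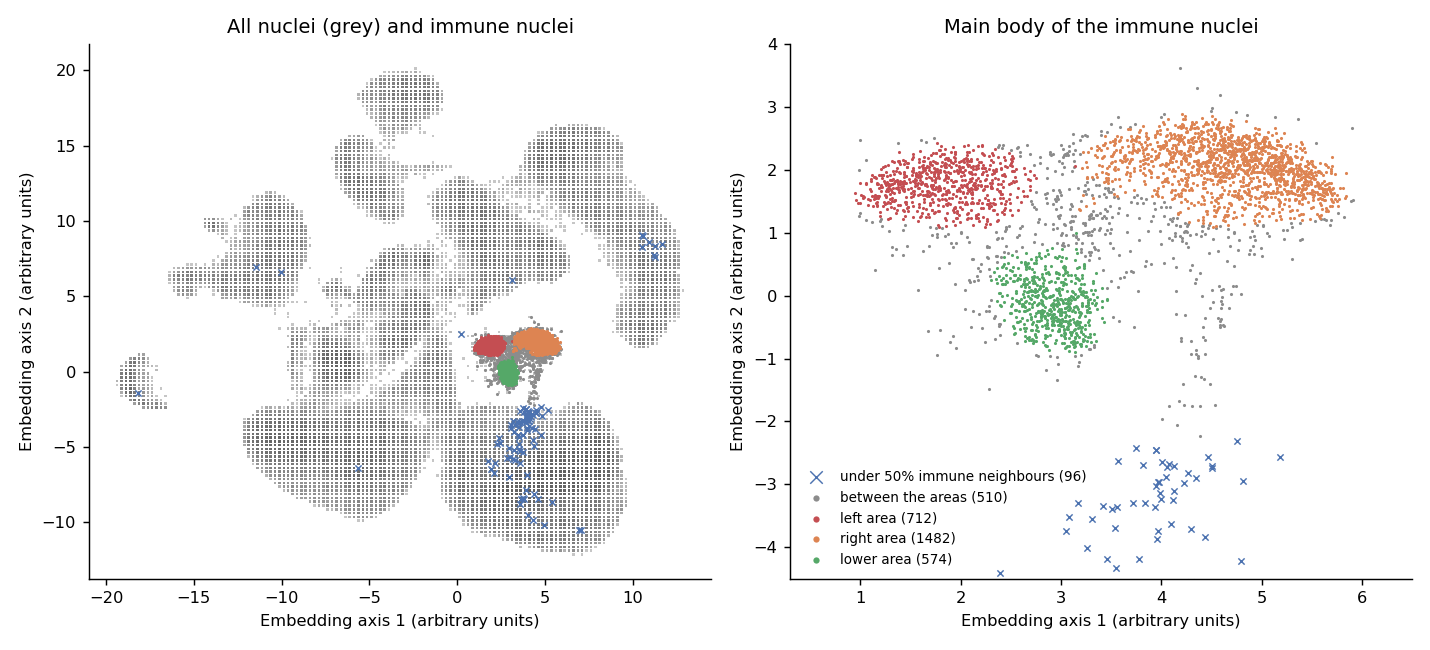
Authors' embedding of all nuclei (left, grey, with immune nuclei in colour) and an enlargement of the immune body (right), both axes in arbitrary units. The 3 dense areas hold 712, 1482 and 574 nuclei, and the 96 crosses are immune nuclei with under 50% immune neighbours, most of them within the proximal tubule.

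The finest and the high-level annotation differed over the name Immune for 17 nuclei. Differences over other names were not counted. The 4 immune nuclei named PST came from RK45_4 (2 nuclei), RK7_4 and RK9_4, held 683 to 913 UMIs and 0.579% to 4.93% mitochondrial UMIs, and had at most 6.67% immune neighbours. Another 13 nuclei carried the fine name Immune but the high-level type of proximal tubule. They came from 7 rats, had a median of 2012 UMIs and no immune neighbour among the nearest 30. With the fine name as the rule the immune nuclei would number 3383. The share of the fine name Immune among all nuclei was 0.69 higher in log odds in untreated obese than in lean rats (SE 0.46, limma adjusted p = 0.389 over 25 names, of which 12.0% were called), and that of the intermediate name 0.70 higher (SE 0.51, limma adjusted p = 0.308 over 11 names, of which 9.09% were called). For both names the other 3 contrasts lay between -0.32 and -0.030 (limma adjusted p from 0.627 to 0.964), with 0.0% of names called. The name PST made up 0.156% of immune nuclei in untreated obese rats on average, 0.167% under sGCact and 0.0% in lean and sGCstim-treated rats, differences carried by 4 nuclei (two-sided exact permutation, p from 0.4 to 1.0).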

How the data were processed

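Nuclei of frozen kidney tissue were sequenced from droplets with UMIs, 3 rats in each of 4 groups. According to the submitters' processing notes the authors used Cell Ranger 6 with the rat build rn6 and Seurat (the study's resource list names an earlier Cell Ranger version), and their methods state intronic reads included, ambient RNA correction, doublet removal, limits on genes and mitochondrial percentage, and batch correction before clustering. The deposited table gives UMIs per nucleus as whole counts without normalization, the mitochondrial share as a percent of UMIs by the authors, and cell-cycle scores by the authors with no fixed range. All per-sample columns were mapped (0 unused). Table names give a rat's group but no replicate number.

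Per rat and high-level type, log odds of shares (0.5 nuclei added to the type, 1 to the total), log2 median UMIs and genes, log2(median mitochondrial percentage + 0.1) and mean scores were fitted with limma 3.58.1 in R 4.3.3 over 12 rats, and adjusted by Benjamini-Hochberg over the types of a contrast. edgeR 4.0.16 served as an alternative. Exact permutation tests, sign-flip tests and correlations (100000 permutations) used Python 3.11.15, scipy 1.17.1 and numpy 2.4.6, dense areas scikit-learn 1.9.0. The limma step was tested on simulated data. The text names no gene as a result. By rule it names every fine and intermediate name held by immune nuclei, endothelium and stroma as the most like types, and each rat. The members and lists were chosen with earlier results of these data known. Types were defined by the authors from genes of these nuclei, so mitochondrial percentages and scores of immune against other types are given without a test. The rats of a group are separate animals, each with 1 library.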

Additional observations from a re-analysis of the deposited data

How the results depend on the processing

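No paired analysis was possible because the table names rats by identifiers that carry no replicate number. Of 180 recomputed values other than those leaving out a rat, 158 kept their direction and their side of the threshold. The untreated obese minus lean difference of the immune share, not called over all nuclei, passed with the centred log-ratio (1.20), with the denominator without proximal tubule (1.73) and with edgeR and TMM (1.97, log2), and not with the arcsine scale, edgeR on totals, robust moderation, the compared groups alone, the filters on UMIs or mitochondria or the fine name. Outside the proximal tubule this difference no longer passed without RK7_4 and RK9_4 (0.62), at 1000 UMIs or more (1.56) or at 1% mitochondrial UMIs or less (2.24). Without RK7_4 and RK9_4 the treated minus untreated differences turned to 0.068 under sGCact and 0.40 under sGCstim. These alternatives outside the proximal tubule were chosen after seeing the data. The causes were not tested.

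Reversals of differences that were never called came from 4 kinds of setting. At 1% mitochondrial UMIs or less, UMIs per nucleus under sGCstim minus untreated obese were -0.00044. In nuclei of 1000 to 1500 UMIs the S score difference was 0.0061 for untreated obese minus lean and -0.0035 for sGCact minus sGCstim, and the G2M score difference -0.0044 for sGCact minus untreated obese. With the median over nuclei, the S score difference was -0.0024 for sGCact minus sGCstim, and the G2M score differences were -0.0017 for untreated obese minus lean, -0.0024 for sGCact minus untreated obese and -0.0022 for sGCact minus sGCstim. Against other types of the same rat, exchanging mean and median gave 0.0016 for UMIs and -0.00046 for the G2M score against the endothelium and -0.0093 for genes against the stroma, which were -0.047 at 1000 UMIs or more. The relation to the number of nuclei turned to r = -0.252 without the 2 farthest rats, and that to median UMIs was weaker within groups (r = -0.543).

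Leaving out each rat in turn gave 588 values, of which 531 kept direction and side. Outside the proximal tubule the untreated obese minus lean difference stayed between 1.35 and 2.29 and lost its call without RK3_4, RK5_4, RK7_4 or RK9_4, and the sGCact minus untreated obese difference stayed between -1.61 and -0.66 and was called without RK16_4. Over all nuclei the share under sGCact minus untreated obese ran from -0.68 to 0.070 and under sGCstim minus untreated obese from -0.40 to 0.35. The log2 ratio to the endothelium for sGCact minus sGCstim ran from -0.88 to 0.0028, and that to the stroma for sGCstim minus untreated obese from -0.81 to 0.40. Against untreated obese rats, log2 UMIs of sGCact-treated rats ran from -0.29 to 0.085 and log2 genes from -0.22 to 0.095, and those of sGCstim-treated rats from -0.11 to 0.26 and from -0.046 to 0.27. The mitochondrial difference ran from -1.44 to 0.64 for untreated obese minus lean, from -1.50 to 0.40 for sGCact minus untreated obese and from -0.10 to 2.17 for sGCact minus sGCstim. The S score ran from -0.0045 to 0.0011 for sGCact minus untreated obese and from -0.0011 to 0.0042 for sGCact minus sGCstim, and the G2M score from -0.0030 to 0.0037, from -0.0017 to 0.0043 and, for sGCstim minus untreated obese, from -0.0044 to 0.0023. The name PST for sGCact minus untreated obese ran from -0.156 to 0.0942 percentage points. Within rats, the ranges that crossed 0 were -0.13 to 0.33 for mitochondria against the endothelium, -0.057 to 0.029 for UMIs, -0.0054 to 0.071 for genes and -0.20 to 0.15 for mitochondria against the stroma, and -0.00019 to 0.0012 for the S score against the other types. Where a group kept 2 rats or 1, the spread was pooled over groups. No value could be had for the name PST at 1000 UMIs or more, since its 4 nuclei were shallower.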
